A study of Homo sapiens with 27 samples.

Results

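The 51 genes described here carry a cell through G2 and mitosis: CDK1 and its cyclins, the Polo and Aurora kinases, the spindle assembly checkpoint, the kinetochore, the mitotic kinesins, the spindle and midzone proteins, and the partners of the anaphase-promoting complex (APC/C). They were chosen by gene symbol, as the genes of a G2/M and mitotic list, with earlier results of these data known. Every transcript that GENCODE release 44 assigns to one of these symbols was taken. All 51 had counts, among 18776 genes with counts in the 6 libraries, and together they were represented by 361 transcripts. The libraries were made from RM82, an established Ewing sarcoma cell line, as part of a study that tested unique molecular identifiers (UMIs) built from blocks of repeated bases for counting cDNA molecules. Of the libraries, 3 came from cells kept for 24 h with SGC-CLK-1, a chemical inhibitor of the CDC-like kinases (CLKs), which phosphorylate the SR proteins of the splicing machinery. The other 3 came from cells kept with DMSO, the solvent, as the negative control. The concentration of the inhibitor is not given in the sources used here. Every library was from this 1 cell line. The study's methods name the ONT PromethION as the sequencer of this experiment, whereas the extraction text in the labels names a library kit made for Illumina. The study also reports the same comparison in RM82 cells from Illumina sequencing.

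The libraries held between 362826 and 666702 counts of UMIs, the deepest being SGC-CLK-1 replicate 1. The labels number the libraries 1 to 3 within each group but do not say that they came from separate cultures. The study states in general terms, without naming these libraries, that its experiments were repeated independently. Its figure legend for the RM82 experiment gives 3 replicates per condition, without saying whether these were separate cultures. The p-values below therefore measure the spread between these samples, which may be technical. Of 9 markers listed for Ewing sarcoma, 7 had counts, among them CD99 (34 to 74 counts per library), STEAP1 (29 to 46) and EWSR1 (42 to 185), while FLI1 and NKX2-2 had none. The summed level of these markers lay between 455 and 571 CPM (counts scaled to a common library size) in every library. Of 9 markers of plasma cells, the type of another human line in the series, CD38 had 22 to 46 counts, POU2AF1 had 1 to 5, JCHAIN had a single count in 1 library, and SDC1, TNFRSF17, MZB1, IRF4, IGKC and IGHA1 had none.

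A cell enters mitosis when CDK1, bound to a B-type cyclin, becomes active, with help from CDC25 phosphatases, PLK1 and Aurora A. Kinetochores then attach chromosomes to spindle microtubules, and the spindle assembly checkpoint holds back the APC/C and its activator CDC20 until every kinetochore is attached. Once released, the APC/C marks securin and cyclin B for destruction, sister chromatids part and the midzone and cleavage furrow divide the cell. Transcripts of most of these proteins are known to peak in G2 and mitosis in dividing cells. In RNA from a whole culture, fewer cells in these phases and less RNA per cell cannot be told apart.

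The question put to the data was how the level of each of these genes differed between inhibitor-treated and control cells. Counts of all transcripts of a gene were summed, scaled to CPM with TMM factors and tested with edgeR across all genes. PTTG1, which encodes securin, fell and MELK, a kinase of the AMPK-related family, rose, and these were the only members past a Benjamini-Hochberg adjusted p of 0.05. Most of the other members were lower in treated cells without passing that threshold. A group of 8 members had adjusted p-values between 0.0539 and 0.0969, all of them lower in treated cells: CCNB1, PLK1, AURKA, CENPF, NUF2, CDC20, CENPE and HMMR. Of the 51 members, 47 passed the filter on low counts, with total counts between 61 and 1829 over the 6 libraries. The filter left out CCNA2, CENPA, KIF11 and UBE2S, with totals between 33 and 56. Over all 6344 genes tested, 0.236% passed the adjusted threshold (15 genes, 8 lower and 7 higher; 8 and 20 when libraries were scaled by their size alone). The lower share was 0.126% and the higher share 0.11%. Leaving out SGC-CLK-1 replicate 1, 2 or 3 or DMSO replicate 1 or 3 ended both member calls. Without DMSO replicate 2, PTTG1 was the only member called.

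Of the members that passed the filter, 33 had a log2 fold change below 0 and 14 above, with a median of -0.35, beside a median of -0.0012 and 50.1% below 0 over all genes tested. At an unadjusted p under 0.05, 16 members were lower and 2 were higher, where 6.97% of all genes tested were lower and 6.89% higher. The 3 treated and 3 control libraries did not overlap for 20 members that were lower and 3 that were higher, where 9.71% and 10% of all genes tested did so. In treated libraries, the counts of all 51 members made up 0.676%, 0.717% and 0.766% of the counts assigned to genes, and in control libraries 0.937%, 1.04% and 0.998%. Every treated library lay below every control library in this share. With DESeq2, 9 members passed the adjusted threshold as lower and 1 as higher: PTTG1 and MELK with the 8 named above. DESeq2 gave an adjusted p for 4745 genes and called 66 of them as lower (1.39%) and 41 as higher (0.864%).

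**Figure D1:**
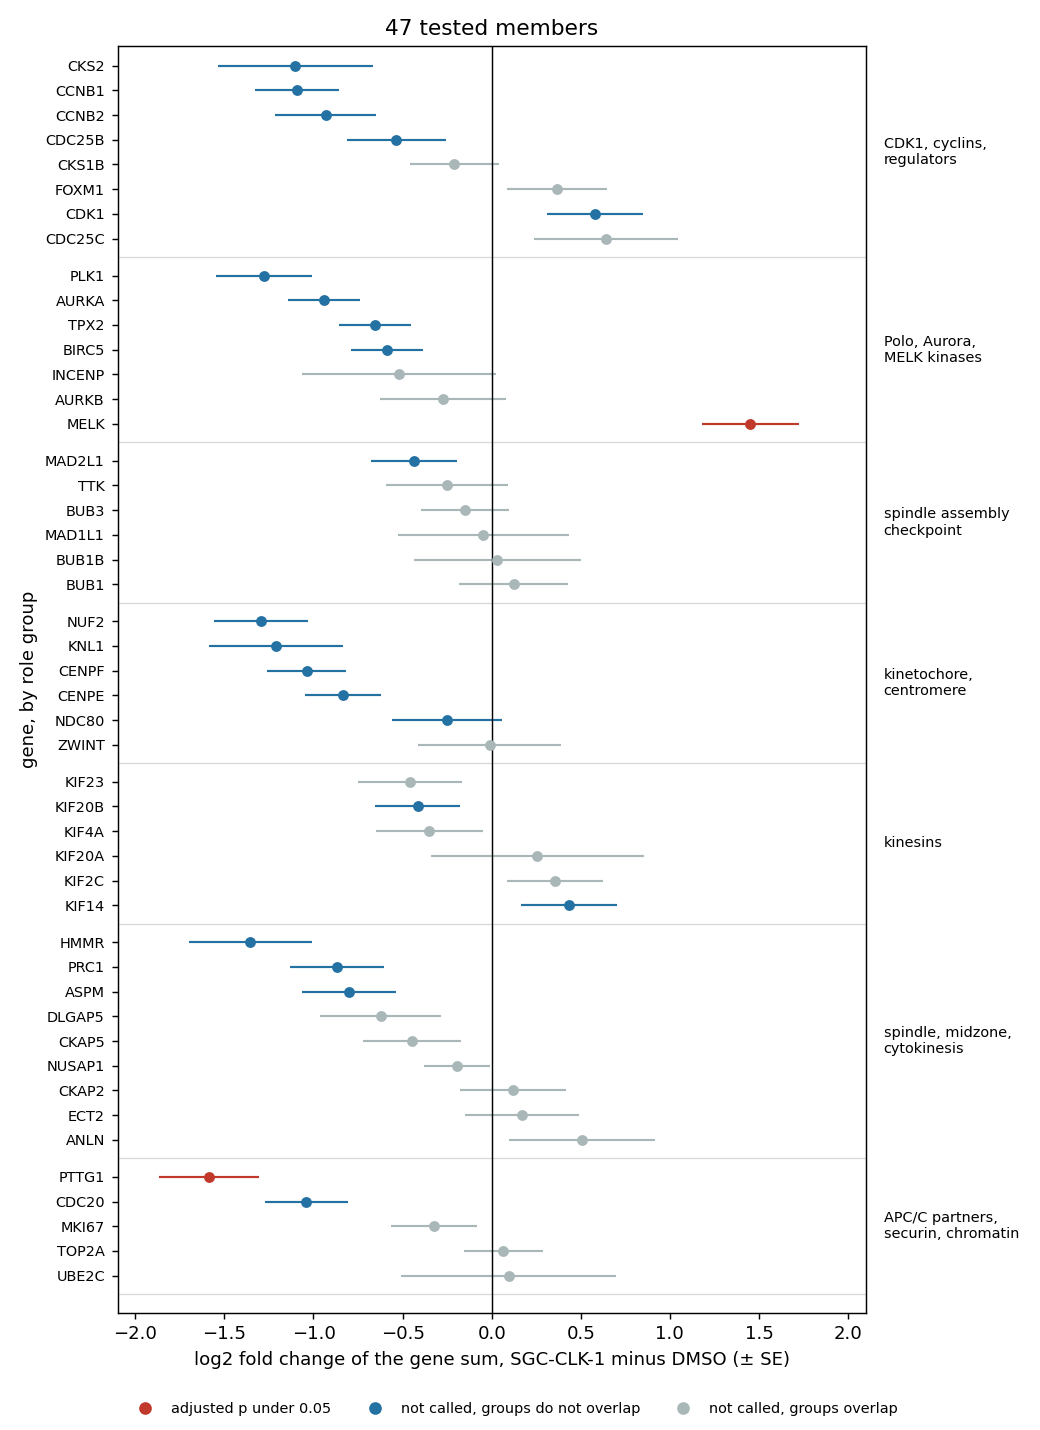
Log2 fold change of the summed counts (SGC-CLK-1 minus DMSO, horizontal axis, with SE bars from edgeR) for the 47 members that passed the filter, ordered by role group. PTTG1 at -1.59 and MELK at 1.45 are the points past the adjusted threshold. Kinetochore genes lie at or below 0 and checkpoint genes around 0.

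The subgroups were set side by side. The kinetochore group had a median log2 fold change of -0.94 over 6 tested members, and the Polo and Aurora group -0.59 over 7. The spindle assembly checkpoint had a median of -0.10 over 6 and the kinesins -0.046 over 6. Between these lay the CDK1 group (-0.37 over 8), the spindle and midzone group (-0.45 over 9) and the APC/C and chromatin group (-0.32 over 5). No gene of the checkpoint or kinesin lists had an unadjusted p under 0.05. In the kinetochore list 4 of 6 did, all lower, among them CENPE, which is itself a kinesin. In the Polo and Aurora group 5 of 7 did, of which 4 were lower and MELK higher. Over all genes tested the shares were 6.97% lower and 6.89% higher, at which a list of 6 would often hold none. These medians are descriptions of small lists, drawn up with earlier results of these data known, and the difference between groups was not tested. The kinetochore group summed to 1163, 1216 and 1557 CPM in treated libraries and to 2154, 2564 and 2842 CPM in control libraries, which did not overlap. The checkpoint group summed to 737, 797 and 1062 CPM against 963, 1003 and 886 CPM, and here treated replicate 3 was above every control. The kinesins summed to 698, 712 and 786 CPM against 678, 835 and 913 CPM, with overlapping groups. A sum is led by its most abundant members, CENPF and CENPE in the first case and BUB3 in the second.

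**Figure D2:**
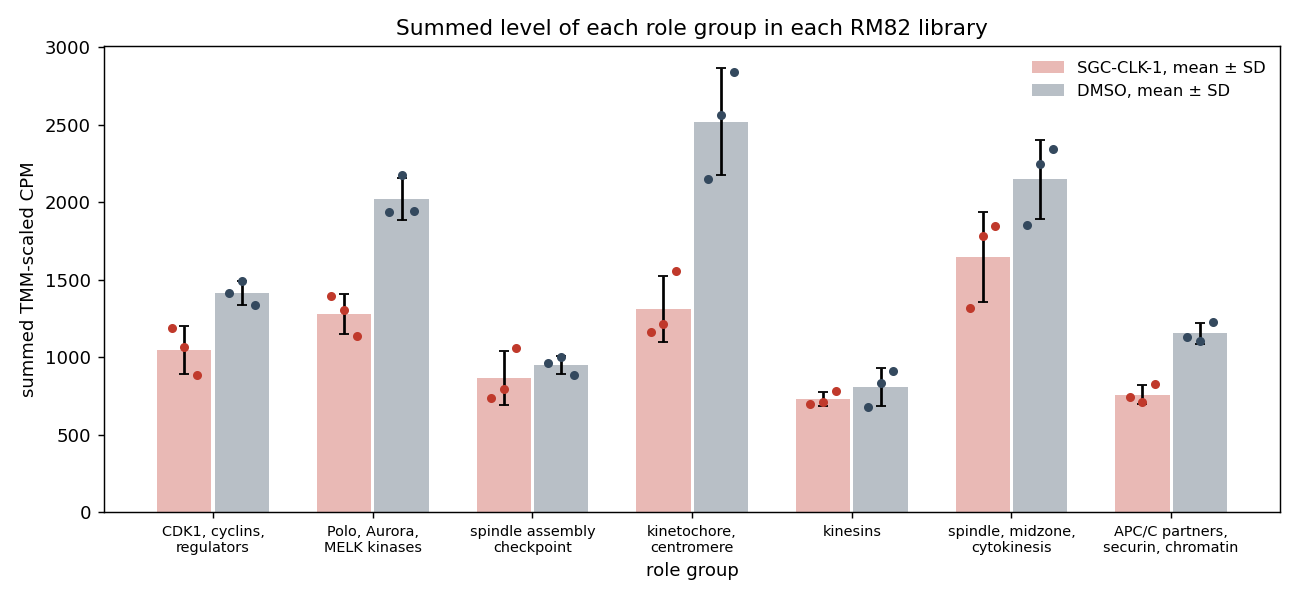
Summed TMM-scaled CPM of the members of each role group (vertical axis) in each library (points), with bars for the group mean and whiskers for 1 SD (n = 3). Treated and control libraries stand apart in the CDK1, Polo and Aurora, kinetochore, spindle and APC/C groups, and overlap in the checkpoint and kinesin groups. In the spindle group they nearly touch, with the highest treated library at 1845 CPM and the lowest control at 1857 CPM.

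Promoters of late cell cycle genes are known for a pair of sequence elements, the cell cycle genes homology region (CHR, TTTGAA or TTCGAA) bound by the DREAM and MuvB complexes, and the CCAAT box (CCAAT) bound by NF-Y. Promoter windows of 250 bases before to 50 bases after the start were taken from RefSeq on GRCh38.p14, and 43 of the 51 members had one. FOXM1, AURKA, BUB3, UBE2C, TTK, BIRC5, KNL1 and TPX2 did not. Both strands were searched for these letters, of which TTCGAA is its own reverse complement. A CHR stood in 66.7% of the 54 member windows and a CCAAT box in 74.1%, and both in 57.4%. Of all 35116 windows of the same length in the table, 16.4% held a CHR, 34.6% a CCAAT box and 6.38% both. A match of letters is a description and does not show binding. Some of the windows are shown for members that the results below turn on, read 5′ to 3′ along the gene from 100 bases before the RefSeq start, as far as the first base that GENCODE places in an exon. Each printed stretch therefore lies upstream of the gene's exons, and capitals mark CHR and CCAAT letters on either strand (ATTGG and TTCAAA on the opposite one). In the PTTG1 window, 2 CCAAT matches on opposite strands overlap.
CDC20 (chr1:43358881-43358980, plus strand): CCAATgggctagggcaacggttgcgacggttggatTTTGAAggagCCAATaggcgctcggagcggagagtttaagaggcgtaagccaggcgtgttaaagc
CCNB2 (chr15:59105046-59105125, plus strand): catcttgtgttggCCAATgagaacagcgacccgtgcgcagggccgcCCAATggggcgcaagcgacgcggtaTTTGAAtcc
CKS2 (chr9:89311095-89311194, plus strand): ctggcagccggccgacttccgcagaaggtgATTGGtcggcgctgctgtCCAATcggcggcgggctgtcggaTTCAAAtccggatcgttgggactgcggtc
CCNB1 (chr5:69167050-69167134, plus strand): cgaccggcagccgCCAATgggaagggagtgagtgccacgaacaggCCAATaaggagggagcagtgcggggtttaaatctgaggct
CENPF (chr1:214603095-214603184, plus strand): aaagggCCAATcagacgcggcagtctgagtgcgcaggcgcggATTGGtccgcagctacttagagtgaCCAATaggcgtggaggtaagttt
PTTG1 (chr5:160421755-160421854, plus strand): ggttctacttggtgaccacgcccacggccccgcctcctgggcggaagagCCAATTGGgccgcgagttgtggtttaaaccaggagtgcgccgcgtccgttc
MELK (chr9:36572795-36572861, plus strand): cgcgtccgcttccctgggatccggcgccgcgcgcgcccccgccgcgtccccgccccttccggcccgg
CDC20, CCNB2 and CKS2 carry a CHR with CCAAT boxes nearby. CCNB1, CENPF and PTTG1 show CCAAT letters alone in these stretches, and the MELK stretch holds neither. The CENPF window also has a CHR 41 bases past the start, outside the printed stretch, and CENPF is counted below among members with both motifs. Among tested members with a window, the 26 with both motifs in 1 window had a median log2 fold change of -0.44 and lay between -1.35 and 0.64, with 20 below 0. The other 13 had a median of -0.046 and lay between -1.59 (PTTG1) and 1.45 (MELK), with 7 below 0. The ranges overlapped, and the difference was not tested.

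In the group of CDK1 and its regulators, no gene sum passed the adjusted threshold. At an unadjusted p under 0.05, 3 of 8 were lower and CDK1 was higher, beside the same 6.97% and 6.89% of all genes tested. CCNB1 (cyclin B1, the partner that activates CDK1 at mitotic entry; chr5:69167135-69178245, plus strand, GRCh38) had 322, 272 and 182 CPM in treated and 574, 639 and 453 CPM in control libraries. Every control library was above every treated one, and the means were 259 ± 70.9 and 556 ± 94.5 CPM (SD, n = 3; log2 fold change -1.09 ± 0.24 SE, edgeR adjusted p = 0.0539). CCNB2 (cyclin B2) had 93.0, 62.5 and 63.7 CPM against 123, 148 and 157 CPM. The groups again did not overlap (log2 fold change -0.93 ± 0.28 SE, edgeR adjusted p = 0.144). CKS2, a small CDK-binding subunit, had few counts and gave 44.8, 18.7 and 24.3 CPM against 78.4, 45.5 and 76.6 CPM. Treated replicate 1 came within 1 CPM of the lowest control (log2 fold change -1.10 ± 0.43 SE, edgeR adjusted p = 0.267). CDC25B, a phosphatase that activates CDK1, had 103, 99.99 and 66.8 CPM against 143, 123 and 129.9 CPM (log2 fold change -0.54 ± 0.28 SE, edgeR adjusted p = 0.416). CDK1 itself had 186, 137 and 134 CPM in treated and 86.8, 121 and 99.9 CPM in control libraries. Its treated libraries were all above its control libraries, opposite to the B-type cyclins, and it did not pass the adjusted threshold (log2 fold change 0.58 ± 0.27 SE, edgeR adjusted p = 0.360). CDC25C and FOXM1, the transcription factor of the G2/M programme, had log2 fold changes of 0.64 and 0.37 with overlapping groups, and CKS1B had -0.21.

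**Figure D3:**
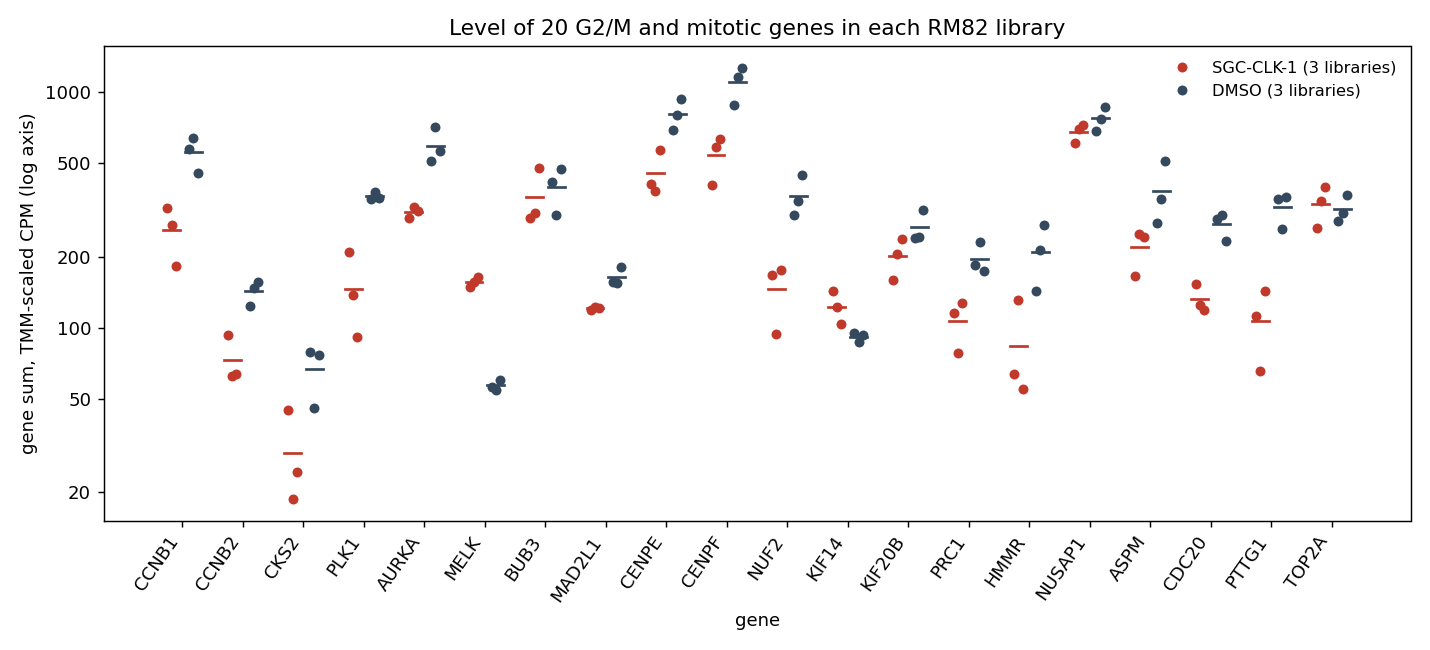
TMM-scaled CPM of the gene sums (vertical log axis) of 20 members in each treated (red) and control (dark) library, with a line at each group's mean. PTTG1 lies between 65.6 and 143 CPM in treated and between 262 and 356 CPM in control libraries, and MELK between 148 and 164 against 54.6 to 60.0 CPM.

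Among the mitotic kinases, MELK stood opposite to PLK1 and Aurora A. MELK (chr9:36572862-36677683, plus strand) had 86, 50 and 54 counts in treated libraries and 20, 24 and 18 in control libraries, which corresponds to 148, 156 and 164 CPM against 56.0, 54.6 and 60.0 CPM. Its spread within each group was narrow, and no control library reached the lowest treated one. The mean rose from 56.9 ± 2.78 to 156 ± 7.87 CPM (SD, n = 3; log2 fold change 1.45 ± 0.27 SE, edgeR adjusted p = 0.0477). With 1 library left out in turn, the adjusted p of MELK lay between 0.0742 and 0.242, with log2 fold changes between 1.40 and 1.48. The counts were spread over 14 transcripts, the largest of which took 15.9% of them, and no single MELK transcript passed the filter on low counts. PLK1, the Polo-like kinase that acts from mitotic entry to cytokinesis (chr16:23677656-23690367, plus strand), had 208, 137 and 91.0 CPM against 353, 378 and 353 CPM. Control libraries lay close together and treated ones were spread, all below them (log2 fold change -1.28 ± 0.27 SE, edgeR adjusted p = 0.0539). AURKA (Aurora A, the centrosomal and spindle pole kinase) had 291, 325 and 313 CPM against 509.7, 708 and 559.7 CPM. Here the treated libraries were the narrow group (log2 fold change -0.94 ± 0.20 SE, edgeR adjusted p = 0.0539). TPX2, which activates Aurora A on the spindle, had 296, 269 and 234 CPM against 403, 450.5 and 409.8 CPM (log2 fold change -0.66 ± 0.20 SE, edgeR adjusted p = 0.144). The groups of TPX2 did not overlap. BIRC5 (survivin, a subunit of the chromosomal passenger complex) had 295, 347 and 258 CPM against 482, 455 and 413 CPM (log2 fold change -0.59 ± 0.20 SE, edgeR adjusted p = 0.198). For the other passenger complex genes, AURKB and INCENP, the groups overlapped and the log2 fold changes were -0.27 ± 0.35 and -0.52 ± 0.55 (SE).

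The 6 checkpoint genes showed no difference past either threshold. BUB3, which carries BUB1 and BUBR1 to kinetochores and had the most counts of the group, had 291, 306 and 473 CPM in treated and 415, 300.3 and 473 CPM in control libraries. The groups overlapped almost completely (log2 fold change -0.15 ± 0.25 SE, edgeR adjusted p = 0.839). MAD2L1 (MAD2, which sequesters CDC20) had 119, 122 and 121 CPM against 157, 155 and 179.9 CPM. It was the only checkpoint gene whose groups did not overlap (log2 fold change -0.44 ± 0.24 SE, edgeR adjusted p = 0.452). Of all genes tested, 9.71% were apart in this direction. BUB1, BUB1B, MAD1L1 and TTK had log2 fold changes between -0.25 and 0.12, with SEs between 0.31 and 0.48. Differences within these errors were not detectable in these libraries, and how depth and the spread between replicates contributed was not tested. BUB1B had 49, 20 and 31 counts in treated and 33, 53 and 5 counts in control libraries, and control replicate 3 was far below the other two.

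In the kinetochore group, the libraries did not overlap for 5 of the 6 tested members, all lower in treated cells, where 9.71% of all genes tested were apart in that direction. CENPF, a kinetochore protein that accumulates in G2 (chr1:214603185-214664574, plus strand), had the most counts of all members, with 401, 584 and 628 CPM in treated and 877, 1156 and 1269 CPM in control libraries. No treated library reached the lowest control (log2 fold change -1.04 ± 0.22 SE, edgeR adjusted p = 0.0539). CENPE, the kinesin that moves chromosomes to the metaphase plate, had 408, 378 and 568 CPM against 686, 799 and 929.5 CPM. Its groups were likewise apart (log2 fold change -0.84 ± 0.21 SE, edgeR adjusted p = 0.0969). NUF2, a subunit of the NDC80 complex that binds microtubules, had 167, 93.7 and 176 CPM against 299.7, 344 and 443 CPM. Treated replicate 2 was the lowest and all controls were higher (log2 fold change -1.30 ± 0.26 SE, edgeR adjusted p = 0.0539). KNL1, the scaffold on which checkpoint proteins assemble, had 31.0, 56.2 and 30.3 CPM against 72.8, 116 and 76.6 CPM (log2 fold change -1.21 ± 0.38 SE, edgeR adjusted p = 0.148). NDC80, the partner of NUF2, had 65.5, 59.4 and 69.8 CPM against 86.8, 75.1 and 70.0 CPM. The groups of NDC80 nearly touched and the difference was within its error (log2 fold change -0.25 ± 0.31 SE, edgeR adjusted p = 0.779). ZWINT had a log2 fold change of -0.011 ± 0.40 (SE), and CENPA, the centromeric histone, had 3 to 15 counts per library and was not tested.

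Kinesins other than CENPE showed small differences in both directions. KIF20B, which acts in cytokinesis and had the most counts of the group, had 158, 206 and 237 CPM against 241, 241 and 317 CPM. Its highest treated library lay just below its lowest control (log2 fold change -0.42 ± 0.24 SE, edgeR adjusted p = 0.469). KIF14, which works with PRC1 and citron kinase at the midbody, had 143, 122 and 103 CPM against 95.2, 86.5 and 93.3 CPM. It was the only kinesin whose treated libraries were all higher (log2 fold change 0.43 ± 0.27 SE, edgeR adjusted p = 0.517). Among all genes tested, 10% were apart as higher. KIF2C, KIF4A, KIF20A and KIF23 had overlapping groups and log2 fold changes between -0.46 and 0.36. KIF11, the motor that separates spindle poles, had 3 to 12 counts per library and was not tested.

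Of the 9 tested spindle and midzone genes, 3 were lower and none was higher at an unadjusted p under 0.05 (6.97% and 6.89% of all genes tested), and none passed the adjusted threshold. HMMR, a spindle assembly factor, had 63.7, 131 and 54.6 CPM in treated and 143, 214 and 273 CPM in control libraries. Treated replicate 2 came close to the lowest control without reaching it (log2 fold change -1.35 ± 0.35 SE, edgeR adjusted p = 0.0969). PRC1, the microtubule bundler of the midzone, had 115, 78.1 and 127 CPM against 185, 229.8 and 173 CPM, with groups apart (log2 fold change -0.87 ± 0.27 SE, edgeR adjusted p = 0.144). ASPM, a spindle pole protein, had 165, 249.98 and 243 CPM against 277, 353 and 509.7 CPM. Control replicate 3 was the highest and the groups did not overlap (log2 fold change -0.80 ± 0.26 SE, edgeR adjusted p = 0.170). NUSAP1, which binds microtubules near chromosomes and had the most counts of this group, had 608, 697 and 722 CPM against 683, 767 and 866 CPM. Its groups overlapped (log2 fold change -0.19 ± 0.19 SE, edgeR adjusted p = 0.712). ANLN, ECT2 and CKAP2 had log2 fold changes of 0.51, 0.17 and 0.12, and DLGAP5 and CKAP5 of -0.62 and -0.45, all with overlapping groups.

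PTTG1, the securin that restrains separase until anaphase (chr5:160421855-160428739, plus strand), had 65, 21 and 47 counts in treated libraries and 126, 115 and 107 in control libraries. On the CPM scale these were 112, 65.6 and 143 against 353, 262 and 356. The highest treated library was below the lowest control, and the mean fell from 324 ± 53.7 to 107 ± 38.8 CPM (SD, n = 3; log2 fold change -1.59 ± 0.28 SE, edgeR adjusted p = 0.0355), to 0.330 of the control level. With 1 library left out in turn, its adjusted p lay between 0.0400 and 0.242 and its log2 fold change between -1.83 and -1.36. CDC20, the APC/C activator, had 153, 125 and 118 CPM against 288, 300.3 and 233 CPM, with groups apart (log2 fold change -1.04 ± 0.23 SE, edgeR adjusted p = 0.0615). TOP2A, the topoisomerase that untangles chromatids, had the most counts in the APC/C and chromatin group, with 264, 344 and 395 CPM against 283, 305 and 366 CPM. Treated and control libraries were interleaved (log2 fold change 0.064 ± 0.22 SE, edgeR adjusted p = 0.932). MKI67, which coats mitotic chromosomes and is used as a marker of dividing cells, had 162, 150.0 and 137 CPM against 154, 209 and 199.9 CPM. Its groups overlapped (log2 fold change -0.32 ± 0.24 SE, edgeR adjusted p = 0.601). UBE2C, an APC/C-directed ubiquitin-conjugating enzyme, had 4 to 24 counts per library and a log2 fold change of 0.095 ± 0.61 (SE).

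Single transcripts were then tested, since a gene sum here can count a molecule more than once. Of 84 member transcripts that passed the filter, 20 fell and none rose at an adjusted p under 0.05 in edgeR's quasi-likelihood test, where 3.95% of all 7840 transcripts tested were called, 2.1% as lower and 1.85% as higher. With libraries scaled by their size alone, 130 transcripts were called as lower and 165 as higher, against 165 and 145, and 16 member transcripts were called, all lower. The 20 belonged to 10 genes, out of 35 members with a tested transcript. These genes were PTTG1 (4 transcripts), HMMR (3), NUF2 (3), PLK1, CDC20 and CENPE (2 each), and CCNB1, CENPF, AURKA and ASPM (1 each). A molecule could count on several transcripts of its gene, so the 20 calls are not independent of each other. The median log2 fold change over the 84 was -0.53, against -0.0058 over all transcripts tested. The main isoform, meaning the transcript with the most counts over the 6 libraries, was called in each of the 10 genes except AURKA. Without 1 library, the number of member transcripts called was 9, 2 and 6 (without SGC-CLK-1 replicates 1, 2 and 3) and 8, 11 and 10 (without DMSO replicates 1, 2 and 3). With DESeq2 it was 9.

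The main isoform of PTTG1 (ENST00000393964, 5 exons, 1070 bases) had 21, 7 and 15 counts in treated and 42, 38 and 35 in control libraries. All treated values were below all control values (log2 fold change -1.51 ± 0.30 SE, edgeR adjusted p = 0.00445). The main isoform of CCNB1 (ENST00000256442, 9 exons, 2029 bases) had 136, 63 and 53 counts against 155, 227 and 99. Its raw counts overlapped, treated replicate 1 being the deepest library, and its CPM did not (log2 fold change -1.03 ± 0.22 SE, edgeR adjusted p = 0.00762). CENPF carried 94.3% of its counts on ENST00000366955 (20 exons, 10290 bases), with 224, 176 and 199 counts against 291, 478 and 357 (log2 fold change -0.93 ± 0.21 SE, edgeR adjusted p = 0.0103). PLK1 had 2 abundant transcripts, the coding ENST00000300093 and ENST00000562272, which GENCODE lists as retaining an intron. The coding transcript had 59, 20 and 15 counts against 61, 82 and 48 and the other 54, 19 and 13 against 56, 70 and 43. Both fell, with log2 fold changes of -1.16 ± 0.26 and -1.11 ± 0.27 (SE; edgeR adjusted p = 0.0111 and 0.0169). AURKA was spread over 13 transcripts. Of the 7 that passed the filter, all were lower, between -1.19 and -0.66, and only ENST00000395915 passed the adjusted threshold (log2 fold change -1.19 ± 0.31 SE, edgeR adjusted p = 0.0248).

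**Figure D4:**
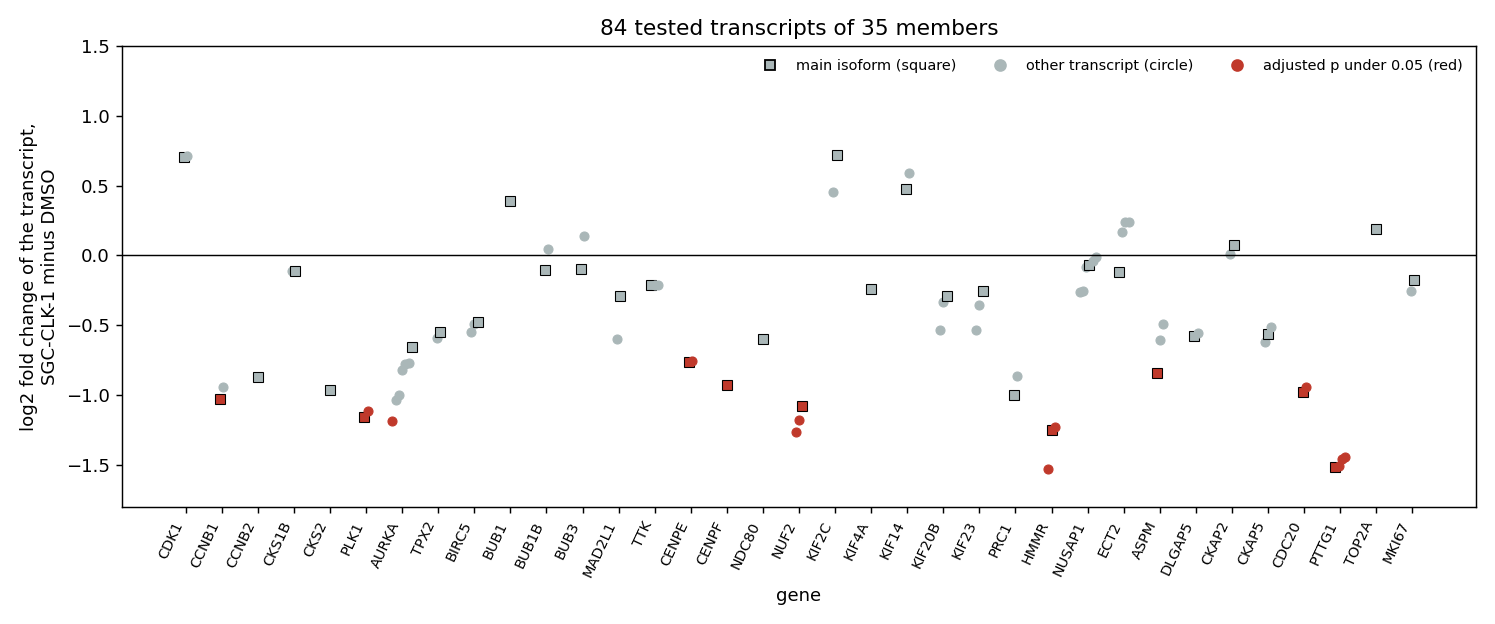
Log2 fold change (SGC-CLK-1 minus DMSO, vertical axis) of the 84 tested transcripts of 35 members, with squares for main isoforms and red for an adjusted p under 0.05. All 20 red points lie below 0.

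Taking the main isoform in place of the gene sum gave 11 members past the adjusted threshold among 35 that passed the filter, all lower, where 4.01% of the 3689 main isoforms tested were called. They were PTTG1, CCNB1, CCNB2, PLK1, CENPE, CENPF, NUF2, PRC1, HMMR, ASPM and CDC20, and of the 2 members called on sums PTTG1 was called again. The main isoform of MELK did not pass the filter. At an unadjusted p under 0.05, 15 of the 35 were lower and 2 higher (CDK1 and KIF2C), where 8.48% and 8.76% of main isoforms were. The median over these 35 was -0.51. By group it was -0.90 (CDK1), -0.88 (kinetochore), -0.63 (Polo and Aurora) and -0.60 (spindle and midzone). It was -0.60 for the APC/C and chromatin group, -0.26 for the kinesins and -0.13 for the checkpoint. The CDK1 group thus had the lowest median on main isoforms, close to that of the kinetochore group, which had the lowest on gene sums. CDC25B, CDC25C and FOXM1 of the CDK1 group were tested on sums but not on main isoforms. The same holds for KNL1 and ZWINT of the kinetochore group, so the rankings rest on different members. No gene of the checkpoint list or of the kinesin list was among the 11, while CENPE, a kinesin listed with the kinetochore genes, was.

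Transcript usage, the change of a transcript against the other transcripts of its gene, was asked because CLKs act on splicing factors. None of the 28 members in this test had an adjusted p under 0.05 in edgeR's diffSpliceDGE, and none had an unadjusted p under 0.05. The smallest unadjusted p was 0.736, for MAD2L1. Of 1805 genes tested, 0.277% passed the adjusted threshold and 1.72% the unadjusted one. A read could count on several transcripts of its gene, so their counts are not independent, and the test made few calls over all genes. The lack of a call does not show that usage was unchanged. The share of counts on the main isoform is given as a description. For PTTG1 it was 32.5% ± 0.732 in treated and 33.0% ± 0.312 in control libraries (SD, n = 3), and for PLK1 48.1% ± 2.35 and 47.7% ± 2.15. ASPM had 54.0% ± 0.955 against 58.8% ± 1.06, and AURKA 17.1% ± 0.483 against 14.6% ± 0.477. Of 46 tested members with more than 1 transcript, the groups were apart in this share for 10, where 11.7% of all such genes were. In 8 of the 10 (ASPM, AURKA, CENPF, CKAP2, ECT2, KIF20B, MKI67 and PRC1) the means lay within 5 percentage points of each other. ZWINT had 26.3% ± 1.16 against 41.5% ± 15.4, and its control libraries were widely spread. The widest gap among tested members was for NDC80, also with groups apart, with 51.9% ± 9.41 against 68.0% ± 4.26 on 19 to 38 counts per library. The main isoform is annotated as protein coding in 50 of the 51 members, the exception being CDC25C, whose main isoform is listed as a target of nonsense-mediated decay.

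**Figure D5:**
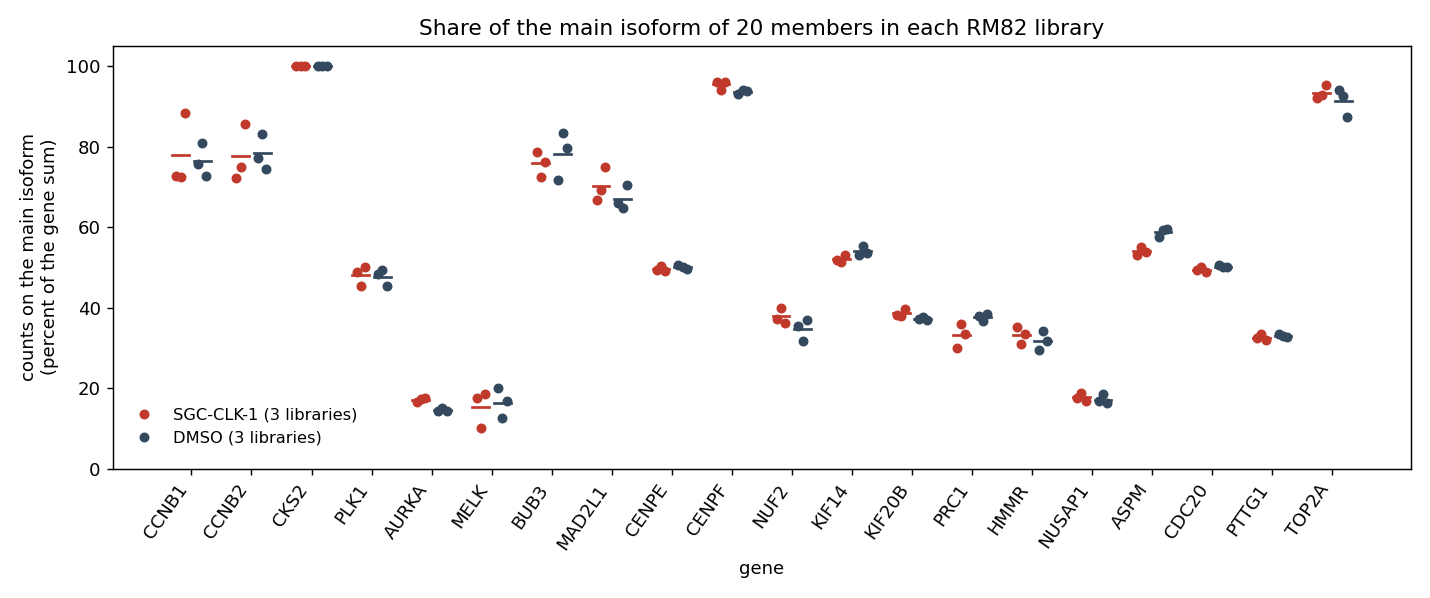
Percent of the counts of each of 20 members that fell on its main isoform (vertical axis), in each treated (red) and control (dark) library with a line at the group mean. Mean shares run from under 20% for AURKA, MELK and NUSAP1 to 100% for CKS2, and treated and control means lie within 5 percentage points of each other.

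The shares also show how the sums were composed. Reads could be counted on several transcripts of a gene, and the sum over the main isoform had a median ratio of 2.36 over the 51 members. In 27 members another transcript had a total within 10% of the main one. In TTK and MAD1L1, another transcript had the same count as the main one in every library. For TTK these were 22, 12 and 17 counts in treated and 19, 31 and 7 in control libraries on each of 3 transcripts. Differences between treated and control are compared within a gene, or within the summed members of a role group or of the whole list. In such sums, a molecule counted on several transcripts adds more than once. Levels between genes are not divided by length.

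Other mitotic genes outside the 51 were read from the same fit. Of 82 genes in 4 further lists (APC/C subunits, condensins, other kinetochore genes, and other mitotic entry, spindle and exit genes), 67 passed the filter as gene sums and none passed the adjusted threshold in edgeR, while SMC4 alone passed it in DESeq2. On main isoforms, 39 were tested and 3 passed in edgeR, where 2.33% of all main isoforms tested passed as lower and 1.68% as higher. SMC4 (log2 fold change -0.82 ± 0.19 SE, edgeR adjusted p = 0.0161) and SGO2, a shugoshin (-1.06 ± 0.28 SE, edgeR adjusted p = 0.0283), fell. KNTC1, a subunit of the kinetochore complex that recruits dynein and MAD1, rose (log2 fold change 1.26 ± 0.35 SE, edgeR adjusted p = 0.0373). Among the gene sums, 9 were lower and 7 were higher at an unadjusted p under 0.05 (6.97% and 6.89% of all genes tested), and the median log2 fold change was -0.047. SMC4, a condensin ATPase that compacts chromosomes, had the smallest p among condensins, with 1168, 969 and 1347 CPM in treated and 1762, 2225 and 2702 CPM in control libraries. All treated values were below all control values (log2 fold change -0.94 ± 0.20 SE, edgeR adjusted p = 0.0539). SGO1 (shugoshin, which guards centromeric cohesion) had 93.0, 131 and 103 CPM against 157, 196 and 273 CPM (log2 fold change -0.94 ± 0.28 SE, edgeR adjusted p = 0.133). ANAPC15, an APC/C subunit, had 53.4, 43.7 and 33.4 CPM against 72.8, 118 and 80.0 CPM (log2 fold change -1.03 ± 0.35 SE, edgeR adjusted p = 0.190). TROAP, a spindle-associated protein, had 129, 96.9 and 81.9 CPM against 165, 159 and 183 CPM (log2 fold change -0.69 ± 0.26 SE, edgeR adjusted p = 0.247). The groups did not overlap for any of these 4 genes. Among the 67 tested genes of these lists, the groups were apart for 7 that were lower and 9 that were higher. Over all genes tested, 9.71% were apart as lower and 10% as higher. The other kinetochore list had a median of 0.26 over 22 tested genes, with 13 above 0, whereas the 6 tested kinetochore members above all lay below 0. The condensins had a median of -0.23 over 8, the APC/C subunits -0.18 over 12 and the remaining list -0.049 over 25. Differences between lists were not tested.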

How the data were processed

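Counts came from the 6 RM82 libraries, 3 per labelled group. The authors deposited, per library, the count of UMIs on each transcript, without normalization, from ONT reads mapped to human transcripts (hg38) with minimap2. Secondary alignments were kept, so 1 molecule could count on several transcripts. The submitters' processing notes name minimap2 2.22, UMI-tools, featureCounts 2.0.1 and DESeq2. Transcripts missing from a library were set to 0. By identifier without version, 86362 of 93530 transcripts matched a gene in GENCODE release 44, and the rest, 6.58% to 7.50% of the counts, were left out of gene sums. Total counts were 666702, 362826 and 373004 (SGC-CLK-1) and 416352, 523456 and 372876 (DMSO).

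Gene sums, main isoforms and transcripts were each tested across all features with edgeR 4.0.16 under R 4.3.3 (filterByExpr, minimum count 10 and minimum total 15; TMM; quasi-likelihood test; Benjamini-Hochberg threshold 0.05), and usage with diffSpliceDGE. SE was derived from the fold change and its F statistic. Replicates differed by more than sampling noise (chi-square per degree of freedom 1.35 to 2.71 on main isoforms, since sums can count a molecule repeatedly), and functions were tested on simulated data. Alternatives were DESeq2 1.42.0, other scalings, no filter, main isoform counts, a replicate block and leaving out each library. Members, role groups, further lists and motifs were chosen with earlier results of these data known. Values per library were given for members called in sums or transcripts, for up to 3 per role group with the smallest p among those with groups apart, for the member with the most counts per group, and for the smallest p of each further list. CDK1, CDC25B, TPX2, BIRC5, KNL1, NDC80, BUB1B and MKI67 were added after their values were seen. Reports on common molecular identifiers and 1 table of the whole series were not used.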

Additional observations from a re-analysis of the deposited data

How the results depend on the processing

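All 20 named genes kept their direction in every alternative fit except TOP2A, whose log2 fold change of 0.064 became -0.088 without SGC-CLK-1 replicate 3 and -0.019 without DMSO replicate 1, in a range up to 0.21. RLE size factors and library size only gave 2 called members as before, though library size only called 28 genes in all. The number of members past the adjusted threshold was 10 with no filter beyond a total of 1 count, 10 with DESeq2, 11 with main isoform counts and 0 to 1 without 1 library. Over all genes it was 169, 107, 148 and 1 to 21, against 15. Members with an unadjusted p under 0.05 numbered 16 to 19 without 1 library. The median log2 fold change of the members was -0.51 with main isoform counts and -0.48 to -0.28 without 1 library. Member transcripts called were 8 without the filter, 9 with DESeq2 and 2 to 11 without 1 library, against 20. All transcripts called were 162 and 113 under the first 2 and 81 to 363 without 1 library, against 310. Of 232 alternative values of the 20 called transcripts, 95 lost the call and none reversed. Leaving out a library leaves fewer samples. For the other settings, the cause was not tested. Library size over all counts, chosen after seeing the data, called 2 members and 20 member transcripts, shared with those reported. Usage called 0 members in every fit run.

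Same-numbered libraries deviated together with correlations of 0.064, 0.024 and 0.031, so the numbers were not taken to pair them. With the replicate block, 6 members (5 lower) and 36 genes were called, and 22 member transcripts among 427 in all (240 lower and 187 higher). SGC-CLK-1 replicate 3 and DMSO replicate 2 correlated best with another number.

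Tested members had 61 to 1829 counts over 6 libraries and 4 members fell below the filter. How far depth limited the calls was not tested.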

Other observations

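In DMSO replicate 3, several members had few counts beside the other control libraries. These were picked after their values were seen. BUB1B had 33, 53 and 5 counts in control replicates 1, 2 and 3, MAD1L1 had 13, 33 and 5, and CDC25C had 21, 34 and 6. TTK had 58, 93 and 21 and KIF20A had 12, 16 and 2. The same library held the highest control level of CENPE, CENPF, NUF2, HMMR and ASPM. It had the lowest level of all 6 libraries for 7 of the 47 tested members, against 2 and 3 for DMSO replicates 1 and 2 and 10 to 13 for the SGC-CLK-1 libraries.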
